A study of Homo sapiens with 16 samples.

Results

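The genes described here encode the hypoxia-inducible factor (HIF) subunits and the enzymes that sense oxygen for them. They comprise 10 members, namely the alpha subunits HIF1A, EPAS1 and HIF3A, the beta subunits ARNT and ARNT2, the prolyl hydroxylases EGLN1, EGLN2 and EGLN3, the ubiquitin ligase subunit VHL and the asparaginyl hydroxylase HIF1AN. The members were chosen by name, and all 10 were found among the 19356 protein-coding genes and 34451 genes to which transcripts were matched. RNA was sequenced from the BJ model, a series of isogenic human fibroblast lines. Its primary stage is the BJ line itself, the immortalized stage carries hTERT, the transformed stage hTERT and SV40 Large-T (BJ hTERT+ SV40+), and the metastasizing stage in addition mutant H-Ras (BJ hTERT+ SV40+ Ras-G12V). Cells of every stage spent 6 passages either in atmospheric or in 3% oxygen, in the same serum-supplemented medium and at 5% CO2, on duplicate plates in parallel, which gave 8 groups of 2 libraries and 16 libraries in all. Each stage is 1 line, the duplicates are plates rather than separate derivations, and p-values therefore measure only the spread between such plates. The promoters that drive the introduced genes are not given in the sources used here.

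HIF is a transcription factor made of an oxygen-labile alpha subunit and a stable beta subunit. When oxygen is plentiful, EGLN enzymes hydroxylate prolines of the alpha subunit, the VHL protein binds the hydroxylated form and marks it for destruction, and HIF1AN hydroxylates an asparagine that the co-activators need. HIF activity is thus set largely at the protein level, and only transcripts were analysed here. The study also stained HIF1A protein in cells of every stage at both oxygen levels. It reports low nuclear levels in primary cells at atmospheric oxygen and a strong increase at the lower oxygen level. For transformed and metastasizing cells it reports raised protein already at atmospheric oxygen, which did not increase further at the lower level. Those images were not analysed here. Transcript expression is given in TPM, a share of all transcripts that sums to 1000000 in each library, and is scaled by transcript length, so that levels of different genes can be set side by side. Values were summed over all transcripts of a gene unless stated otherwise. The number of reads behind a value is unknown, because TPM keep no record of depth.

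Several features of the libraries bear on the values. As a check of the stage labels, TERT was between 0 and 0.543 TPM in the 4 primary libraries and between 31.6 and 193 TPM in the 12 libraries of later stages. HRAS did not follow its label at atmospheric oxygen, where the libraries labelled metastasizing held 94.6 and 78.1 TPM against 120 and 99.0 TPM in the transformed ones. At 3% oxygen the libraries labelled metastasizing held 143 TPM (replicate a) and 772 TPM (replicate b) of HRAS. The study's methods describe an authentication and mutational analysis of the cells from their reads. The study reports that this showed the cells to be isogenic and to carry the mutations of their stages. It also reports that at low oxygen mutated HRAS rose in the metastasizing cells, while wild-type HRAS fell in the transformed ones. Variants were not analysed here, and the TPM of HRAS do not separate mutant from wild type. The 2 libraries labelled metastasizing at 3% oxygen also differed most from each other, with 11% of genes more than 2-fold apart against 1.83% to 4.08% in the other 7 groups. All 10 fibroblast markers reached 1 TPM in every group, but their summed TPM lay between 15547 and 22449 in primary and immortalized libraries and between 3952 and 5732 in transformed libraries and those labelled metastasizing. The defining endothelial markers CDH5, KDR and VWF stayed at or below 0.518 TPM. Of 6 endothelial markers found, at most 1 averaged 1 TPM in a group, and their summed TPM was 0.584 to 2.28 except in primary libraries (10.6 to 11.3) and those labelled metastasizing (5.51 to 20.6) at 3% oxygen. TIE1 and TEK made up those higher sums, with up to 19.9 and 10.3 TPM. Of 6 epithelial markers, EPCAM, CDH1, ESRP1 and CLDN4 reached at most 2.80 TPM, while KRT18 (85.4 to 645 TPM) and KRT8 (8.93 to 67.3 TPM) were high throughout. The epithelial sum was 299 to 342 TPM at atmospheric and 655 to 677 TPM at 3% oxygen in immortalized libraries, 117 to 173 against 340 to 362 TPM in those labelled metastasizing, and 269 to 466 TPM in the others. Of 6 immune markers CD68 alone was high (42.4 to 162 TPM), CD3E was at 0 and PTPRC reached at most 1.32 TPM. The part of these markers in the results was not tested. Lastly, 13 transcripts of at least 5 TPM in all other libraries were below 0.5 TPM in both primary libraries at atmospheric oxygen, against 1 such transcript in 1 of the other 7 groups. A transcript of HIF1A was among the 13, and member results that rest on the primary libraries at atmospheric oxygen are therefore also given for protein-coding transcripts alone where this changed a pass or a call. The results of HIF1A, ARNT, ARNT2, EGLN2 and VHL in those comparisons stayed on their side of the threshold.

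HIF1A was the most abundant member in nearly every library, followed in most by EPAS1. HIF1A ranged from 254 to 436 TPM over the 16 libraries and EPAS1 from 68.4 to 303 TPM. EGLN2 ranged from 29.4 to 79.3 TPM, EGLN1 from 18.7 to 76.0 TPM, HIF1AN from 19.4 to 47.2 TPM, ARNT from 22.1 to 45.1 TPM, VHL from 16.1 to 41.0 TPM and ARNT2 from 4.59 to 33.9 TPM. HIF3A and EGLN3 were at the lower end of detection in every library. HIF3A lay between 0.0867 and 0.594 TPM. EGLN3 was listed at 0 in 4 libraries and peaked at 1.25 and 0.605 TPM in the 2 libraries labelled metastasizing at 3% oxygen. No group mean of either gene reached 1 TPM, the minimum for a test, so 8 of the 10 members were tested.

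**Figure D1:**
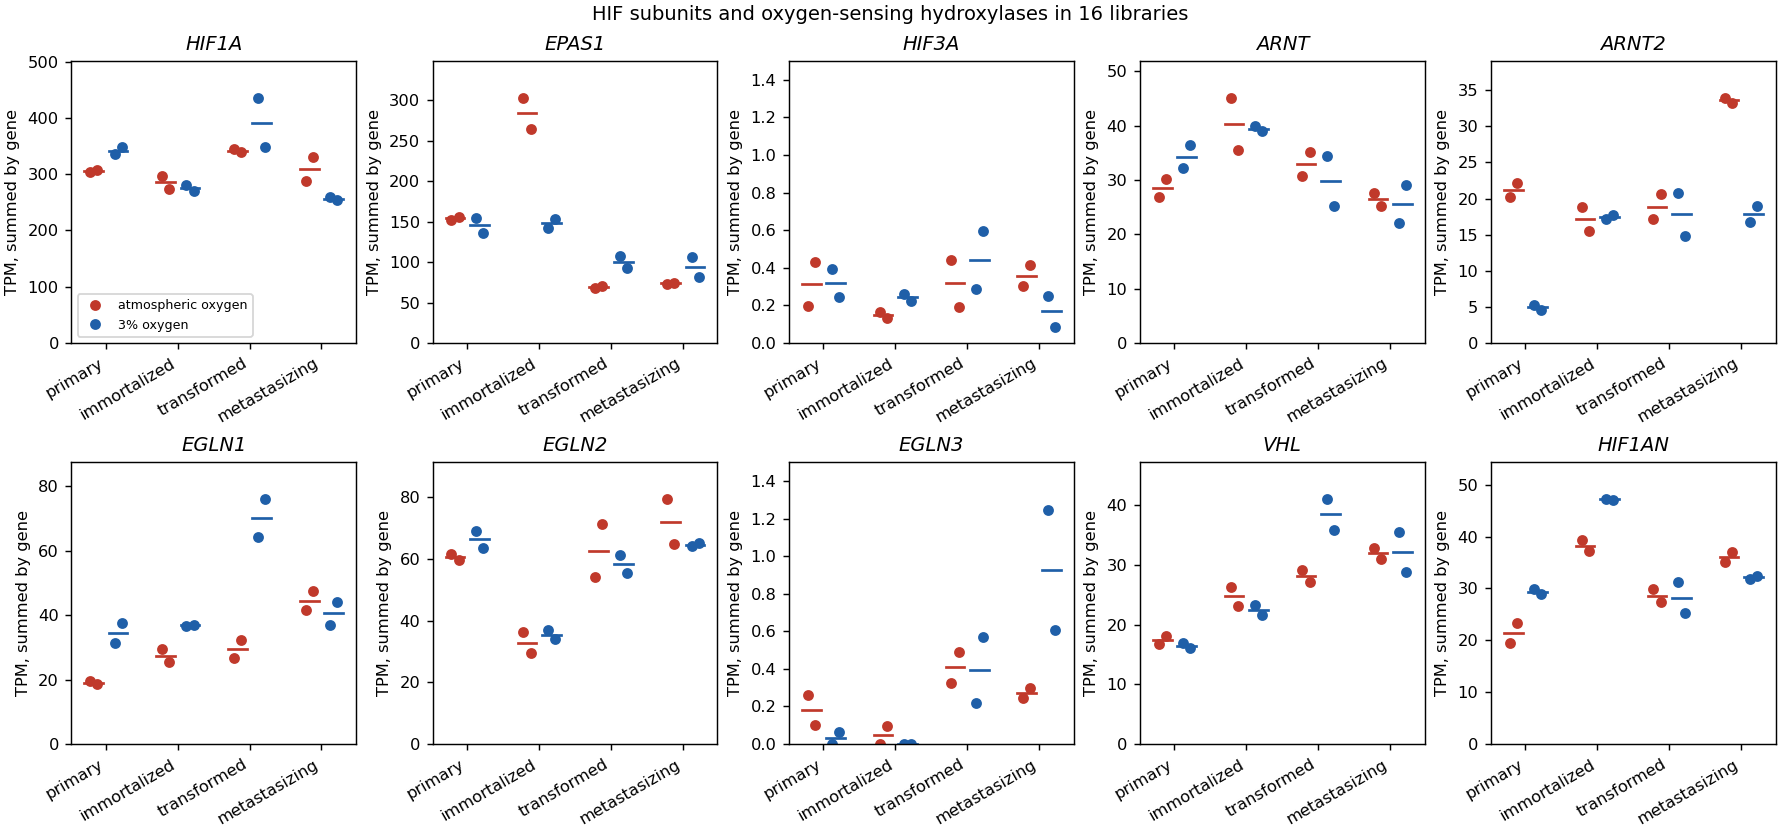
TPM of each member (vertical axes, linear and starting at 0, each with its own scale) by stage, with points for single libraries, short lines for the mean of 2 libraries, and colours for the oxygen level. The oxygen levels lie clearly apart for ARNT2 in primary cells and those labelled metastasizing, EPAS1 in immortalized cells and EGLN1 in transformed cells, whereas HIF3A and EGLN3 stay at or below 1.25 TPM.

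The first question was which members differ between 3% and atmospheric oxygen within a stage. Few did, and which ones depended on the stage. ARNT2 fell 4.00-fold in primary cells and also fell in the cells labelled metastasizing, EGLN1 rose in transformed and primary cells, and EPAS1 fell in immortalized cells and rose in transformed cells. HIF1A, ARNT, EGLN2, VHL and HIF1AN passed the test in none of the 4 stages. Log2(TPM + 0.5) was tested in limma, and p-values were adjusted by Benjamini-Hochberg over all protein-coding genes of at least 1 TPM in a group compared. A gene was counted as called at an adjusted p under 0.01 and a log2 fold change beyond 1, and as passing at an adjusted p under 0.01 whatever the fold. All log2 fold changes are on the log2(TPM + 0.5) scale, which understates changes of low genes.

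In primary cells 1 of 8 members tested was called (ARNT2), against 5.3% of all genes tested, and 2 passed, against 12.8%. In immortalized cells none was called and 1 passed, against 4.91% and 13.4% of all genes. In transformed cells 1 was called (EGLN1) and 2 passed, against 7.48% and 19.5%. In the cells labelled metastasizing none was called and 1 passed, against 7.66% and 14.3%. Over the 4 stages, 2 of 32 member tests were called and 6 passed, beside background shares of 4.91% to 7.66% called and 12.8% to 19.5% passed. The median log2 fold change of the members was 0.15, 0.00, 0.08 and -0.14 in the 4 stages in order, beside 0.08, 0.11, 0.01 and -0.13 for all genes tested. Averaged over the 4 stages with equal weight, none of the 8 members was called, against 2.18% of all genes, and 2 passed (ARNT2 and EGLN1), against 23.2%.

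**Figure D2:**
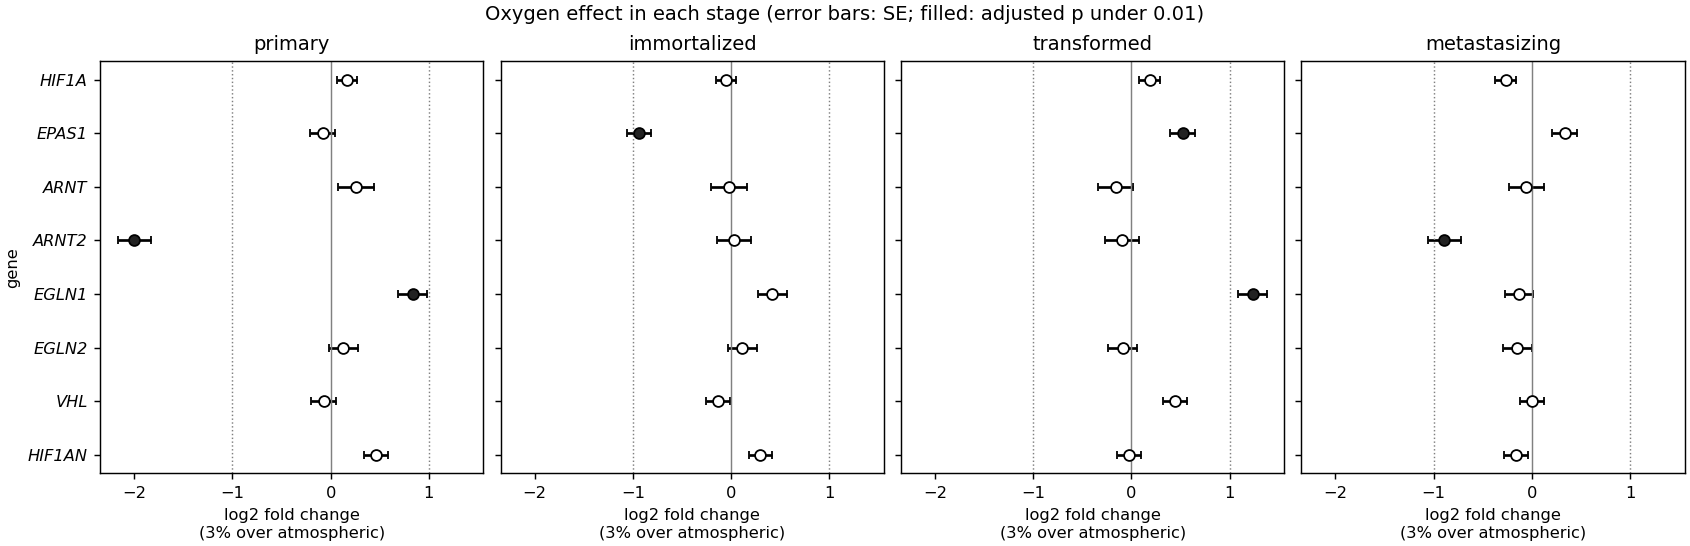
Log2 fold change of the 8 members tested (3% over atmospheric oxygen, horizontal axis) in each stage, with bars for the SE, filled points for an adjusted p under 0.01 and dotted lines at a log2 fold change of -1 and 1. Only ARNT2 in primary cells (-2.00) and EGLN1 in transformed cells (1.23) are filled and lie beyond a dotted line.

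The same members were compared between neighbouring stages at a fixed oxygen level. Counting passes at any fold, the step from primary to immortalized cells moved the most members at atmospheric oxygen and the step from immortalized to transformed cells did at 3% oxygen, whereas only 1 member was called at each oxygen level. The order at atmospheric oxygen was narrow, with 4 members that passed against 2, and 4 against 3 over protein-coding transcripts alone. Of the 4, VHL lay near the threshold (adjusted p = 0.00973), and HIF1AN narrowly missed it at the second step (adjusted p = 0.0128). Of all genes, the largest shares were called at the step from immortalized to transformed cells at either oxygen level. Neighbouring steps share a group of libraries, and each step shares its libraries with the oxygen comparisons. From primary to immortalized cells at atmospheric oxygen none of 8 members was called and 4 passed, against 12.2% and 22.8% of all genes. From immortalized to transformed cells 1 was called (EPAS1) and 2 passed, against 24.3% and 42.4%. From transformed cells to those labelled metastasizing none was called and 1 passed, against 4.12% and 8.63%. At 3% oxygen the first step had 1 call (ARNT2) and 3 members that passed, against 9.23% and 16.8%. The second step had no call and 6 members that passed, against 16.3% and 30.2%. The third step had no call and 2 members that passed, against 5.92% and 13.3%.

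**Figure D3:**
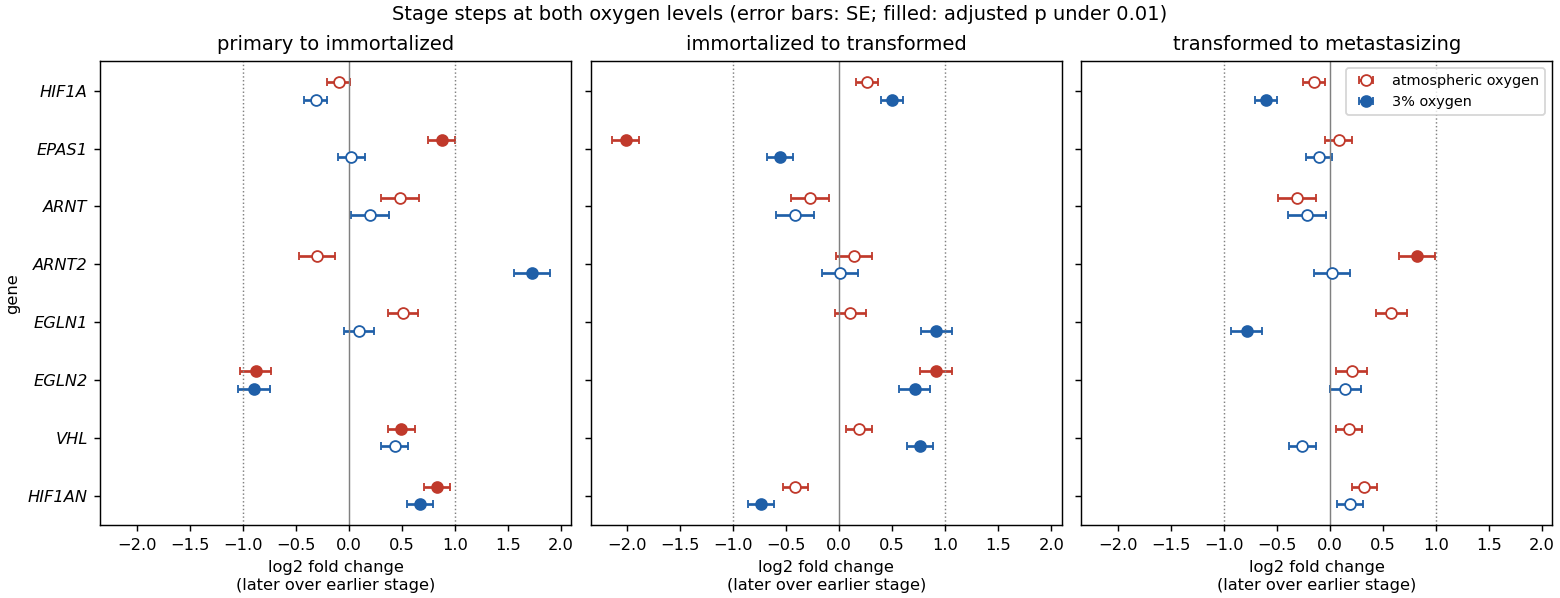
Log2 fold change of the 8 members tested (later over earlier stage, horizontal axis) at each of the 3 stage steps, with bars for the SE, colours for the oxygen level and filled points for an adjusted p under 0.01. EPAS1 drops by 2.02 from immortalized to transformed cells at atmospheric oxygen, and EGLN2 moves down and then up at both oxygen levels.

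HIF1A (GRCh37, chr14:62162231-62214977, plus strand), the alpha subunit found in most cell types, had the most even level of the family. Its TPM were 303 and 307 (atmospheric) and 336 and 348 (3%) in primary cells, 297 and 273 (atmospheric) and 281 and 269 (3%) in immortalized cells, 344 and 340 (atmospheric) and 436 and 348 (3%) in transformed cells, and 288 and 330 (atmospheric) and 259 and 254 (3%) in the cells labelled metastasizing. The oxygen levels did not overlap in primary cells, in transformed cells or in those labelled metastasizing, but none of the differences passed, with adjusted p from 0.0840 to 0.754 over the 4 stages. At 3% oxygen HIF1A rose from immortalized to transformed cells (log2 fold change 0.50, SE 0.11, adjusted p = 0.00289) and fell by 0.60 on the log2 scale from transformed cells to those labelled metastasizing (SE 0.11, adjusted p = 0.00232). Without replicate a of transformed cells at 3% oxygen, the higher of the pair, these were 0.34 (adjusted p = 0.0231) and -0.44 (adjusted p = 0.0131). The rise also missed the threshold without either immortalized library at 3% oxygen (adjusted p = 0.0152 and 0.0262), and the later fall did so with array weights (adjusted p = 0.0485), which give little weight to the libraries labelled metastasizing at 3% oxygen, and fitted on the groups compared alone (adjusted p = 0.179). None of the 3 steps at atmospheric oxygen passed, with adjusted p from 0.0534 to 0.503.

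Most HIF1A signal came from a pair of full-length coding transcripts of 15 exons each, HIF1A-202 with 47.3% to 64.7% and HIF1A-203 with 16.1% to 21.3% of the gene's TPM in a group. Another, HIF1A-210, is a 767-nucleotide transcript of 6 exons without a defined coding sequence. At atmospheric oxygen the primary libraries listed it at 0 TPM, whereas the other 14 libraries held between 26.8 and 67.5 TPM. Over protein-coding transcripts alone the oxygen difference of HIF1A in primary cells was -0.01 (adjusted p = 0.971) in place of 0.17 (adjusted p = 0.271). Its exons 2 to 5 match exons of HIF1A-202, so the split between the transcripts is an estimate.

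EPAS1 (chr2:46520806-46613836, plus strand) encodes HIF-2-alpha, the alpha subunit best known from endothelium, kidney and oxygen-sensing cells. It was the alpha subunit that changed most, both with oxygen and with stage. At atmospheric oxygen its TPM were 152 and 156 in primary, 303 and 265 in immortalized, 68.4 and 70.7 in transformed libraries, and 73.2 and 74.3 in those labelled metastasizing. At 3% oxygen they were 155 and 136, 142 and 153, 108 and 92.8, and 106 and 82.1 in the same order. The immortalized libraries at atmospheric oxygen thus stood above all others, and the oxygen levels did not overlap in immortalized and transformed cells and in those labelled metastasizing.

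In immortalized cells EPAS1 fell at 3% oxygen by 0.94 on the log2 scale (SE 0.13, adjusted p = 0.000530). In transformed cells it rose by 0.52 (SE 0.13, adjusted p = 0.00881), a value so near the threshold that it was lost on leaving out any library other than the 2 labelled metastasizing at 3% oxygen. The difference between both responses was itself called (1.46, SE 0.18, adjusted p = 0.000217), in a comparison where 12% of all genes were called and 17.7% passed. In the cells labelled metastasizing the log2 fold change did not pass (adjusted p = 0.0685). At atmospheric oxygen EPAS1 rose from primary to immortalized cells by 0.88 (SE 0.13, adjusted p = 0.000314) and fell by 2.02 from immortalized to transformed cells (SE 0.13, adjusted p = 3.20e-07). At 3% oxygen the second of these steps was a fall of 0.56 (SE 0.13, adjusted p = 0.00410), which was lost without either immortalized library (adjusted p = 0.0165 and 0.0366) or transformed replicate b (adjusted p = 0.0399), and the first did not pass (adjusted p = 0.913). The immortalized libraries at atmospheric oxygen enter the oxygen comparison and both atmospheric steps, so these results are not independent of each other. EPAS1 is strongly expressed by endothelial cells, and the summed TPM of 6 endothelial markers lay between 0.868 and 1.29 in immortalized libraries at atmospheric oxygen and between 0.909 and 0.914 at 3% oxygen, with CDH5 and KDR at or below 0.335 TPM in every library. The summed TPM of 6 immune markers, nearly all of it CD68, was 158 to 165 in immortalized libraries at atmospheric oxygen, the highest of any group, and 79.7 to 85.8 at 3% oxygen, and the epithelial sum was higher at 3% oxygen as given above. The part of these markers in the EPAS1 difference was not tested.

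EPAS1 expression split mainly between EPAS1-201, the coding transcript of 16 exons, and EPAS1-204, a 559-nucleotide retained-intron transcript that lies over exons 3 to 6 of the former. EPAS1-201 held 151 and 146 TPM in primary libraries at atmospheric oxygen and 116 and 91.3 TPM at 3% oxygen. In immortalized libraries it held 200 and 212 TPM against 97.7 and 92.7 TPM. EPAS1-204 was near 0 (1.03e-05 and 6.55 TPM) in primary libraries at atmospheric oxygen and between 14.2 and 97.7 TPM elsewhere. EPAS1 in primary cells gave a log2 fold change of -0.08 (adjusted p = 0.668) over all transcripts and a fall of 0.53 (SE 0.13, adjusted p = 0.00864) over protein-coding transcripts alone. In immortalized cells the coding sum fell by 1.08 (adjusted p = 0.000169) and was called, the first atmospheric step shrank to 0.47 (adjusted p = 0.00988), and the rise in transformed cells no longer passed (0.47, adjusted p = 0.0115). Averaged over the 4 stages, EPAS1 gave -0.04 (adjusted p = 0.642) over all transcripts and -0.25 (adjusted p = 0.00768) over coding ones.

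EPAS1 made up a varying share of the summed TPM of HIF1A, EPAS1 and HIF3A. In immortalized libraries at atmospheric oxygen it was 50.5% and 49.2% of that sum, close to the amount of HIF1A, and at 3% oxygen 33.6% and 36.2%. In primary libraries it was 33.4% and 33.7% at atmospheric and 31.6% and 28.1% at 3% oxygen. The share was lowest in transformed libraries at atmospheric oxygen, at 16.6% and 17.2%, and lay at 19.8% and 21.0% there at 3% oxygen. In the libraries labelled metastasizing it was 20.3% and 18.4% at atmospheric and 29.0% and 24.4% at 3% oxygen. Thus 3% oxygen went with a lower EPAS1 share in the first 2 stages and a higher one in the last 2, with no overlap between the oxygen levels in any stage. No test was made on the shares.

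**Figure D4:**
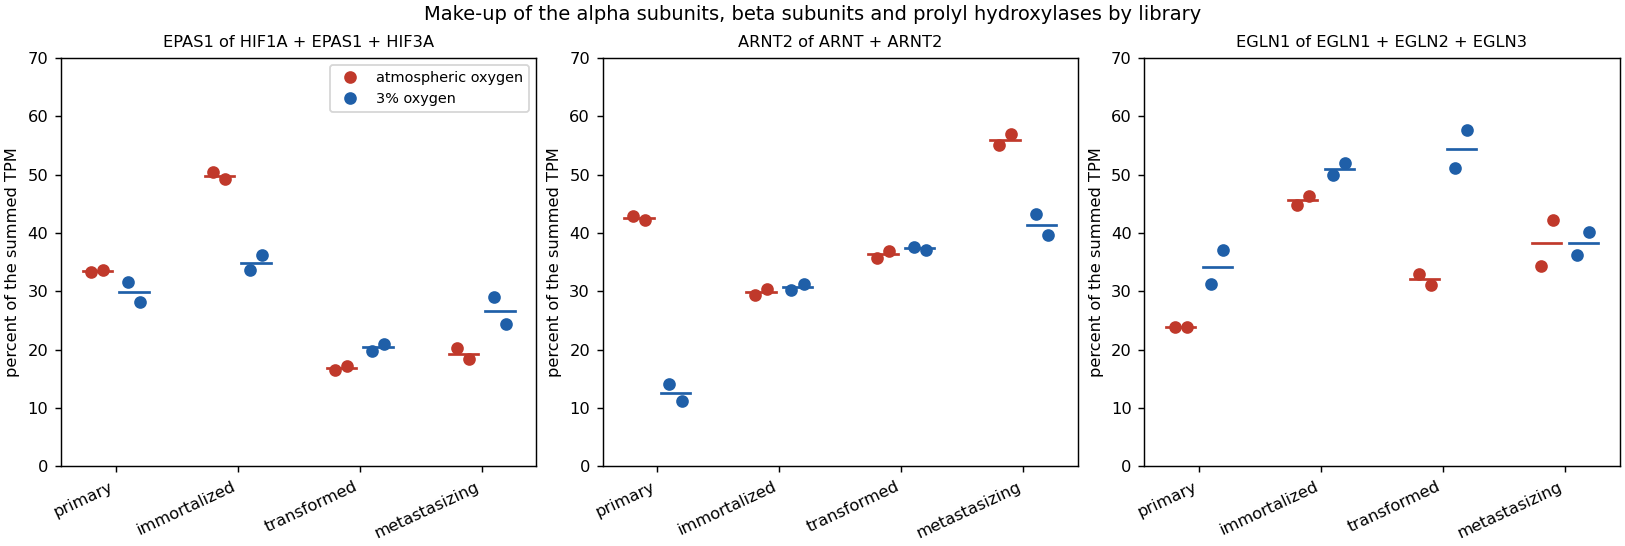
Share of EPAS1 in the summed TPM of the alpha subunits, of ARNT2 in that of the beta subunits and of EGLN1 in that of the prolyl hydroxylases (vertical axes, percent, from 0), by stage, with points for libraries and lines for the mean of 2. The EPAS1 share peaks in immortalized cells at atmospheric oxygen, and the ARNT2 share is lowest in primary cells at 3% oxygen.

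HIF3A (chr19:46800299-46846690, plus strand) encodes the remaining alpha subunit, whose shorter forms can act as inhibitors of the other alphas. Its highest library was a transformed one at 3% oxygen (0.594 TPM, replicate b) and its lowest was labelled metastasizing at 3% oxygen (0.0867 TPM, replicate b). The largest part of this low signal, 35.0% to 78.3% of the gene's TPM in a group, was assigned to the retained-intron transcript HIF3A-207. Without the depth, such values cannot be told from 0.

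ARNT (chr1:150782189-150849184, minus strand) encodes HIF-1-beta, the common partner of the alpha subunits and of other PAS-domain proteins. It ranged from 25.1 to 45.1 TPM at atmospheric oxygen and from 22.1 to 39.8 TPM at 3% oxygen. The oxygen levels were separate in primary libraries only, at 26.9 and 30.2 TPM against 32.1 and 36.4 TPM. The adjusted p of ARNT was 0.315 or higher for oxygen and 0.0558 or higher for the stage steps, so none of its tests passed. Coding transcripts ARNT-202 (27.0% to 52.1%) and ARNT-208 (17.5% to 26.6%) held the largest shares.

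ARNT2 (chr15:80696692-80890274, plus strand), a beta subunit known mainly from neurons and kidney, showed the largest oxygen difference among the members. In primary libraries it was 20.1 and 22.2 TPM at atmospheric oxygen and 5.25 and 4.59 TPM at 3% oxygen, the lowest values of the gene anywhere. In immortalized libraries the values were 18.8 and 15.5 against 17.2 and 17.7 TPM, and in transformed libraries 17.1 and 20.6 against 20.8 and 14.8 TPM, so that both groups overlapped. In libraries labelled metastasizing ARNT2 was 33.9 and 33.3 TPM at atmospheric oxygen, its highest level, and 16.8 and 19.0 TPM at 3% oxygen.

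The fall of ARNT2 in primary cells was 2.00 on the log2 scale (SE 0.17, adjusted p = 3.68e-05), and leaving out single libraries gave -2.09 to -1.91. In the cells labelled metastasizing it fell by 0.89 (SE 0.17, adjusted p = 0.00324), which no longer passed without either atmospheric library (adjusted p = 0.0249 and 0.0210) or without replicate a at 3% oxygen (adjusted p = 0.0164). In immortalized and transformed cells it did not pass (adjusted p = 0.910 and 0.699). The oxygen effect differed between primary and immortalized cells by 2.03 (SE 0.24, adjusted p = 0.000955), where 1.86% of all genes were called and 2.39% passed. Accordingly ARNT2 rose from primary to immortalized cells at 3% oxygen by 1.73 (SE 0.17, adjusted p = 2.88e-05), a comparison that shares the primary libraries at 3% oxygen with the previous ones, and did not pass at atmospheric oxygen (adjusted p = 0.189). From transformed cells to those labelled metastasizing it rose at atmospheric oxygen by 0.82 (SE 0.17, adjusted p = 0.00694), which was lost without any primary library, any immortalized library at 3% oxygen, or any library of the 4 compared (adjusted p from 0.0103 to 0.0691).

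The long coding transcript ARNT2-201, of 19 exons, showed the same contrast. It held 18.6 and 19.6 TPM in primary libraries at atmospheric oxygen against 4.19 and 3.82 TPM at 3% oxygen. In the libraries labelled metastasizing it held 20.7 and 20.4 TPM against 9.49 and 13.1 TPM. Over coding transcripts ARNT2 fell by 2.14 in primary cells (adjusted p = 6.41e-06) and by 0.99 in cells labelled metastasizing (adjusted p = 0.000551), and the latter response was lower than that of transformed cells by 1.18 (adjusted p = 0.00182), where the sum over all transcripts did not pass (adjusted p = 0.0324). ARNT2 was 42.8% and 42.3% of the summed TPM of ARNT and ARNT2 in primary libraries at atmospheric oxygen, and 14.0% and 11.2% at 3% oxygen. Only in the libraries labelled metastasizing at atmospheric oxygen did it exceed ARNT, with 55.1% and 56.9%.

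EGLN1 (chr1:231499497-231558033, minus strand) encodes PHD2, the main prolyl hydroxylase that limits HIF in normal oxygen and itself a known HIF target. In transformed libraries it was 26.8 and 32.4 TPM at atmospheric and 64.4 and 76.0 TPM at 3% oxygen, the highest level of the gene. In primary libraries it was 19.4 and 18.7 against 31.4 and 37.6 TPM, and in immortalized libraries 29.4 and 25.6 against 36.7 and 36.9 TPM. The libraries labelled metastasizing held 41.5 and 47.4 TPM at atmospheric and 37.1 and 44.1 TPM at 3% oxygen, and overlapped. In the first 3 stages both libraries at 3% oxygen lay above both at atmospheric oxygen.

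EGLN1 rose at 3% oxygen in transformed cells by 1.23 (SE 0.14, adjusted p = 0.000161) and in primary cells by 0.83 (SE 0.14, adjusted p = 0.00216). The latter no longer passed without either atmospheric library (adjusted p = 0.0161 and 0.0168) or replicate b at 3% oxygen (adjusted p = 0.0261). The difference in immortalized cells did not pass (adjusted p = 0.0528), nor that in cells labelled metastasizing (adjusted p = 0.526). The oxygen effect was lower in cells labelled metastasizing than in transformed cells by 1.36 (SE 0.20, adjusted p = 0.00106), where 8.47% of all genes were called and 12.1% passed. Fitted on the 4 groups compared alone this difference gave an adjusted p of 0.0182. At 3% oxygen EGLN1 rose from immortalized to transformed cells by 0.92 (SE 0.14, adjusted p = 0.000456) and fell by 0.78 to the cells labelled metastasizing (SE 0.14, adjusted p = 0.00309). That fall was lost without transformed replicate b (adjusted p = 0.0279) or replicate a of the cells labelled metastasizing (adjusted p = 0.0153), with array weights (adjusted p = 0.0793), and fitted on the groups compared alone (adjusted p = 0.150). At atmospheric oxygen none of the steps passed (adjusted p from 0.0173 to 0.567), although the level lay at 18.7 and 19.4 TPM in the first stage and at 41.5 and 47.4 TPM in the last. Averaged over the stages, EGLN1 rose by 0.59 (SE 0.07, adjusted p = 0.000151) and ARNT2 fell by 0.74 (SE 0.08, adjusted p = 0.000101).

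The EGLN1 sum was shared almost equally by EGLN1-201, the coding transcript of 4335 nucleotides, and EGLN1-202, a 614-nucleotide transcript without a defined coding sequence that held 42.3% to 57.4% of the gene's TPM in a group. Both share exons 2, 3 and 4 and differ in the first exon, on the minus strand of chromosome 1 of GRCh37, which spans 231556744 to 231558033 in EGLN1-201 and 231555922 to 231556089 in EGLN1-202. They also differ in the end of the last exon, which spans 231499502 to 231502221 in EGLN1-201 and 231502101 to 231502221 in EGLN1-202. The joins of exon 1 (lower case) and exon 2 (capitals), which tell them apart, are shown because the oxygen result in primary cells turned on this split:
EGLN1-201: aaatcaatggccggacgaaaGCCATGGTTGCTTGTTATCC
EGLN1-202: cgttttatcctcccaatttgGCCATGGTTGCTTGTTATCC

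In transformed cells EGLN1-201 went from 14.4 and 13.4 TPM at atmospheric to 31.0 and 33.4 TPM at 3% oxygen and EGLN1-202 from 12.3 and 19.1 to 33.3 and 42.7 TPM, so both transcripts were higher without overlap. In primary cells EGLN1-201 went from 11.2 and 10.8 to 14.6 and 14.8 TPM and EGLN1-202 from 8.26 and 7.89 to 16.8 and 22.9 TPM. The coding sum of EGLN1 thus differed less in primary cells, by 0.40 on the log2 scale (adjusted p = 0.0536), and did not pass. In transformed cells it rose by 1.18 (adjusted p = 0.000160).

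**Figure D5:**
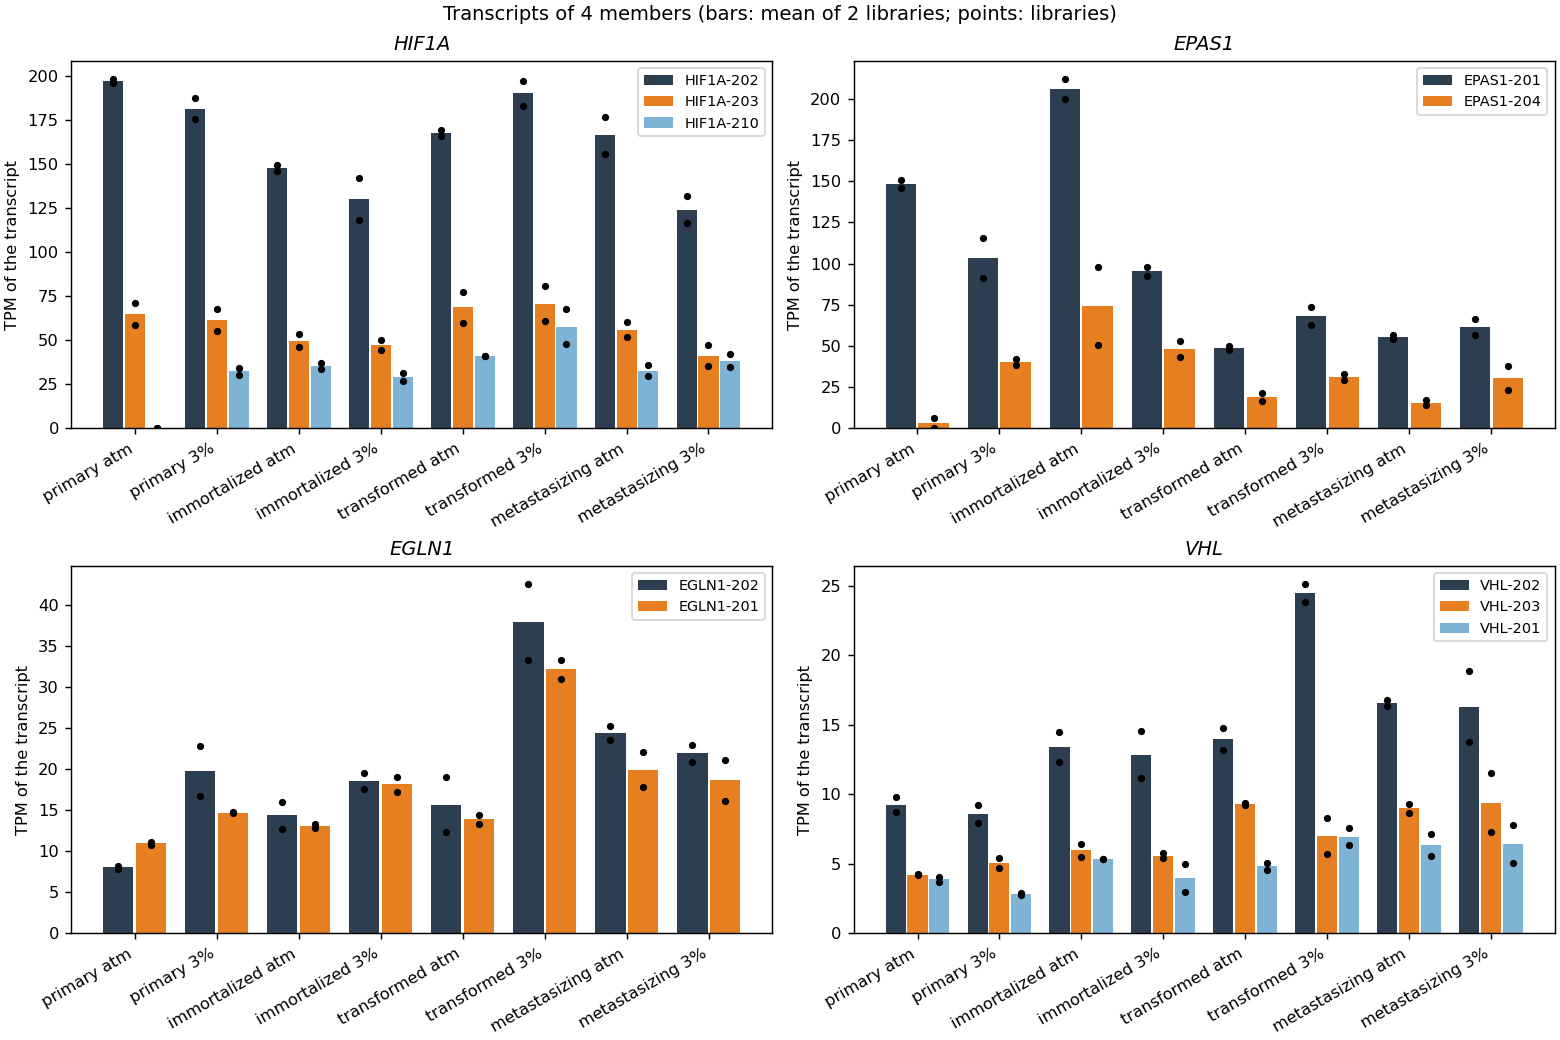
TPM of the transcripts that held at least 10% of HIF1A, EPAS1, EGLN1 or VHL in a group (vertical axes, from 0), with bars for the mean of 2 libraries and points for libraries. HIF1A-210 and EPAS1-204 are at or near 0 in primary cells at atmospheric oxygen, and VHL-202 exceeds VHL-201 in every group.

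HIF binds DNA at a short core that reads ACGTG or GCGTG. In the RefSeq promoter set (GRCh38.p14), the 250 bases before the start of EGLN1, at chr1:231422288-231422537 on the minus strand, held ACGTG once, 13 bases before the start and in capitals here:
EGLN1: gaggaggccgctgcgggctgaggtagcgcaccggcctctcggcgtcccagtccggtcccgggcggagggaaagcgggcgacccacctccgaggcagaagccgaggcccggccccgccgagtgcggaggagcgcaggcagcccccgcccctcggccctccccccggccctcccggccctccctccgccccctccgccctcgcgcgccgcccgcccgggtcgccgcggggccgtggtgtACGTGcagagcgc
The letters ACGTG occurred on either strand in 18.5% and GCGTG in 32.2% of 35116 promoter windows of this length, and 43.2% held at least 1 of them. Of the members in the set, EGLN2 held ACGTG on both strands (in overlapping positions, as its letters are nearly the same read backwards), 48 and 49 bases before 1 of its 2 starts. EPAS1 held GCGTG 117 bases, HIF1A 204 bases and HIF3A 193, 74 and 52 bases before a start. ARNT, EGLN3 and HIF1AN held neither. ARNT2 and VHL had no entry. A match of these letters is a description and does not show binding.

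EGLN2 (chr19:41304901-41314339, plus strand) encodes PHD1, a mostly nuclear prolyl hydroxylase. It differed between stages, and none of its oxygen comparisons passed. Its TPM in primary libraries were 61.5 and 59.4 at atmospheric and 69.0 and 63.6 at 3% oxygen. In immortalized libraries they were 36.2 and 29.4 against 36.8 and 34.0. Transformed libraries held 54.0 and 71.2 against 61.1 and 55.4, and those labelled metastasizing 79.3 and 64.6 against 64.0 and 65.1. Immortalized cells were thus lowest at both oxygen levels, without overlap with any other stage.

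From primary to immortalized cells EGLN2 fell by 0.88 at atmospheric oxygen (SE 0.15, adjusted p = 0.000889) and by 0.90 at 3% oxygen (SE 0.15, adjusted p = 0.00111). From immortalized to transformed cells it rose by 0.91 (SE 0.15, adjusted p = 0.000334) and 0.71 (SE 0.15, adjusted p = 0.00267). The oxygen comparisons gave adjusted p from 0.476 to 0.672. Without replicate a of immortalized cells at atmospheric oxygen, both atmospheric changes were beyond a log2 fold change of 1. The first fall was lost without immortalized replicate b at atmospheric oxygen (adjusted p = 0.0112). At 3% oxygen the fall was lost without primary replicate a or immortalized replicate b (adjusted p = 0.0125 and 0.0135) and the rise without either immortalized library or transformed replicate a (adjusted p = 0.0124, 0.0252 and 0.0210). EGLN2 overlaps the readthrough gene RAB4B-EGLN2, which was listed at 0 to 14.7 TPM, and reads of the shared exons could be assigned to either.

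EGLN3 (chr14:34393433-34931980, minus strand) encodes PHD3, in many cell types a strongly hypoxia-induced hydroxylase. In these cells it was at or below 0.260 TPM in all primary and immortalized libraries. In transformed libraries it was 0.326 and 0.490 TPM at atmospheric and 0.218 and 0.572 TPM at 3% oxygen. In libraries labelled metastasizing it was 0.245 and 0.296 TPM at atmospheric oxygen and 1.25 and 0.605 TPM at 3% oxygen. No fold is given for such values. EGLN1 and EGLN2 thus accounted for nearly all prolyl hydroxylase TPM. EGLN1 was 23.9% and 23.9% of the sum of the 3 enzymes in primary libraries at atmospheric oxygen and 31.3% and 37.1% at 3% oxygen. In transformed libraries it was 33.0% and 31.2% against 51.2% and 57.6%. In libraries labelled metastasizing the share was 34.3% and 42.2% against 36.3% and 40.2%, with overlap. Immortalized libraries gave 44.8% and 46.4% against 50.0% and 52.0%. Over protein-coding transcripts alone the EGLN1 share was lower, and EGLN2 held the larger part in every group. It was then 15.8% and 16.0% against 17.8% and 19.6% in primary libraries. In transformed libraries it was 21.5% and 16.3% against 34.1% and 38.1%.

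VHL (chr3:10183462-10195351, plus strand) encodes the part of a ubiquitin ligase that recognizes hydroxylated alpha subunits. It was lowest in primary libraries, at 16.7 and 18.0 TPM at atmospheric and 16.8 and 16.1 TPM at 3% oxygen. Immortalized libraries held 26.2 and 23.2 against 23.3 and 21.6 TPM. Transformed libraries held 29.1 and 27.2 against 41.0 and 35.9 TPM, and those labelled metastasizing 32.8 and 31.0 against 35.4 and 28.9 TPM. All libraries of later stages lay above all primary ones.

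VHL rose from primary to immortalized cells at atmospheric oxygen by 0.50 (SE 0.13, adjusted p = 0.00973), a value lost without any library other than the 2 labelled metastasizing at 3% oxygen, and did not pass at 3% oxygen (adjusted p = 0.0229). Over protein-coding transcripts alone the step from primary to immortalized cells at 3% oxygen was a rise of 0.54, which passed. From immortalized to transformed cells VHL rose at 3% oxygen by 0.76 (SE 0.13, adjusted p = 0.000597). The oxygen comparison in transformed cells did not pass over all transcripts (adjusted p = 0.0188). Over protein-coding transcripts alone VHL rose there by 0.73 (adjusted p = 0.000948), and that oxygen effect was higher than in immortalized cells by 0.87 (adjusted p = 0.00268) and than in cells labelled metastasizing by 0.74 (adjusted p = 0.00870).

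By the estimated split of the gene's TPM, the most abundant VHL transcript was not the full-length one. VHL-202, which lacks the 123-base exon 2, held 49.7% to 63.7% of the gene's TPM in a group, the full-length VHL-201 17.2% to 22.4%, and VHL-203, without a defined coding sequence, 18.2% to 33.1%. In transformed libraries VHL-202 was 14.8 and 13.2 TPM at atmospheric and 25.1 and 23.8 TPM at 3% oxygen, and VHL-201 was 5.09 and 4.59 against 7.57 and 6.33 TPM. The exon joins that separate them, on the plus strand of chromosome 3 of GRCh37, run from exon 1 (ending at 10183871) to exon 2 (10188198 to 10188320) and to the last exon (starting at 10191471). The first exon of each join is in lower case and the following one in capitals:
VHL-201, exon 1 to 2: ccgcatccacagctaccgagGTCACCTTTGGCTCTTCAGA
VHL-201, exon 2 to 3: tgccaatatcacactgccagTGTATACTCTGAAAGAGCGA
VHL-202, exon 1 to last: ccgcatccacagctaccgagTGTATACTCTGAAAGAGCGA
Apart from these joins and exon 2, the transcripts differ in the ends of their outer exons, as the last exon reaches 10195351 in VHL-201 and 10193766 in VHL-202. The sequence on either side of the VHL-202 join is also part of VHL-201, so the split between the transcripts is an estimate.

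HIF1AN (chr10:102288829-102319755, plus strand) encodes FIH, the asparaginyl hydroxylase. It was highest in immortalized libraries, at 39.4 and 37.1 TPM at atmospheric and 47.2 and 47.1 TPM at 3% oxygen. Primary libraries held 19.4 and 23.2 against 29.8 and 29.0 TPM, transformed libraries 29.9 and 27.3 against 31.2 and 25.2 TPM, and those labelled metastasizing 35.0 and 37.0 against 31.8 and 32.4 TPM. The libraries at 3% oxygen lay above the atmospheric ones in the first 2 stages and below them in the last.

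From primary to immortalized cells HIF1AN rose by 0.83 at atmospheric oxygen (SE 0.12, adjusted p = 0.000332) and by 0.67 at 3% oxygen (SE 0.12, adjusted p = 0.00182). The latter was lost without any of the 4 libraries compared (adjusted p from 0.0126 to 0.0172). From immortalized to transformed cells it fell at 3% oxygen by 0.74 (SE 0.12, adjusted p = 0.000587). At atmospheric oxygen this step did not pass on the values as deposited (adjusted p = 0.0128), but did so after median-ratio rescaling (-0.64, adjusted p = 0.000643) and quantile normalization (-0.57, adjusted p = 0.00151), the comparison in which rescaling shifted the median of all genes most (by -0.23). Without rescaling, the fall of HIF1AN at this step also passed over protein-coding transcripts alone. Its oxygen difference in primary cells did not pass over all transcripts (adjusted p = 0.0172), while the coding sum rose by 0.60 (adjusted p = 0.00441), and the coding sum was called from primary to immortalized cells at atmospheric oxygen (1.12, adjusted p = 4.00e-05). HIF1AN and EGLN2 thus moved in opposite directions at the first step at both oxygen levels and, at 3% oxygen, also at the second. HIF1AN overlaps NDUFB8 on the opposite strand, a respiratory chain gene at 167 to 307 TPM, and the quantification at default settings used no strand, so reads of their shared bases cannot be told apart by strand.

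The genes most like each member were sought by Pearson's r of log2(TPM + 0.5) over the 16 libraries among 13146 protein-coding genes, as a description, since the libraries share stages and oxygen levels. EPAS1 was most like CD63 (r = 0.97), LDAF1 (0.95) and TMOD1 (0.94). EGLN1 was most like FMNL2 (0.95), LRCH3 (0.95) and RBPJ (0.95). EGLN2 was most like ZDHHC4 (0.95), FKBP5 (0.94) and PTER (0.94), and VHL most like KIF13B (0.96), GNPDA1 (0.96) and EIF3E (0.96). HIF1AN was nearest to MINPP1 (0.92), R3HCC1L (0.91) and MMS19 (0.89), ARNT2 to GTF2H5 (0.90), PRRT3 (0.89) and C7orf31 (0.89), HIF1A to ZBTB5 (0.87), KDM2A (0.87) and EZH1 (0.86), and ARNT to LPAR1 (0.87), STARD13 (0.87) and IDE (0.86). Among the members themselves the highest r was that of EGLN1 and VHL (0.69) and the lowest that of EPAS1 and EGLN2 (-0.70).

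The other genes of the pathway were read from 5 lists. For every list the background is the share of all genes called between the oxygen levels, 5.3% in primary, 4.91% in immortalized and 7.48% in transformed cells and 7.66% in cells labelled metastasizing. The VHL ligase and turnover list holds 14 genes, all tested, and none was called in any oxygen comparison. In transformed cells 3 of its genes rose and 2 fell at an adjusted p under 0.01, which 19.5% of all genes passed there. The most abundant were RACK1, a scaffold that can bind HIF1A, at 1642 to 3945 TPM, and the chaperone HSP90AB1, at 760 to 2023 TPM. In transformed cells RACK1 rose by 0.47 (adjusted p = 0.00617) and HSP90AB1 fell by 0.63 (adjusted p = 0.00475). Neither passed in the other 3 stages, with adjusted p from 0.0133 to 0.196.

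Among 8 co-activators and their inhibitors, 7 were tested, as CITED1 was under 1 TPM. CITED2, which competes with HIF for the co-activators EP300 and CREBBP, was called as lower in primary cells, with 496 and 579 TPM at atmospheric and 198 and 185 TPM at 3% oxygen (log2 fold change -1.48, SE 0.18, adjusted p = 0.000284). In the cells labelled metastasizing it fell by 1.71 (SE 0.18, adjusted p = 9.68e-05), from 237 and 245 to 58.0 and 93.1 TPM, and in transformed cells by 0.96 (adjusted p = 0.00228). In immortalized cells the values were 327 and 391 against 590 and 563 TPM, with an adjusted p of 0.0165. The related CITED4 was low and rose in transformed cells, from 0.965 and 0.418 to 3.20 and 4.38 TPM (log2 fold change 1.87, SE 0.40, adjusted p = 0.00453).

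Other bHLH-PAS proteins, most of which pair with ARNT, ARNT2 or BMAL1, form a list of 11, of which 9 were tested in at least 1 stage. BMAL2, a clock protein, was the only one of them to rise in all 4 stages, by 1.83 in primary (adjusted p = 1.99e-05), 0.79 in immortalized (adjusted p = 0.00186) and 0.68 in transformed cells (adjusted p = 0.00292) and by 1.04 in cells labelled metastasizing (adjusted p = 0.000327). AHRR, which represses the aryl hydrocarbon receptor and competes for ARNT, fell in primary cells by 1.28 (adjusted p = 0.00330) and in cells labelled metastasizing by 1.13 (adjusted p = 0.00559). In the latter it went from 24.6 and 24.4 to 14.8 and 8.01 TPM. NPAS2 rose in transformed cells by 2.19 (adjusted p = 0.000738), from 9.38 and 5.88 to 43.6 and 29.4 TPM. SIM1 fell in cells labelled metastasizing by 1.56 (adjusted p = 0.00143), from 11.2 and 11.8 to 2.40 and 5.24 TPM.

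Other dioxygenases that use oxygen, such as histone and nucleic acid demethylases, form a list of 20, all tested. No gene of it passed in primary cells, where 12.8% of all genes did. In immortalized cells 1 passed as lower, beside 13.4% of all genes. In transformed cells 4 passed as higher and 2 as lower, beside 19.5%. In cells labelled metastasizing 2 passed as higher and 1 as lower, beside 14.3%. Averaged over the 4 stages, 5 passed as higher and none as lower, beside 23.2%. KDM6B, a histone H3 demethylase, fell in immortalized cells by 1.25 (adjusted p = 0.00706), from 6.44 and 6.81 to 2.64 and 2.36 TPM, and its values in transformed cells were 3.13 and 2.34 against 6.39 and 6.20 TPM (adjusted p = 0.0113). FTO, an RNA demethylase, rose in cells labelled metastasizing by 1.18 (adjusted p = 0.00677), from 8.92 and 9.55 to 14.7 and 31.3 TPM, a pair that is far apart at 3% oxygen.

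As a readout, 12 established HIF targets were set beside the members. At 3% oxygen 4 were called as higher in primary, 5 in immortalized and 7 in transformed cells and none as lower, while in cells labelled metastasizing 1 was higher (NDRG1) and 1 lower (PFKFB4), beside 5.3%, 4.91%, 7.48% and 7.66% of all genes called in either direction. Their median log2 fold change was 0.95, 0.79, 1.25 and 0.06 in that order, beside 0.08, 0.11, 0.01 and -0.13 for all genes tested. BNIP3, a mitophagy receptor, rose by 1.84, 1.55 and 1.90 in the first 3 stages, from 59.9 and 59.3 to 221 and 208 TPM in primary cells, and held 333 and 338 against 274 and 476 TPM in cells labelled metastasizing (adjusted p = 0.697). PDK1, which restrains pyruvate entry into mitochondria, rose by 2.02, 1.22 and 1.21 in the same 3 stages. CA9, a carbonic anhydrase and sensitive HIF1 target, rose by 3.63 in immortalized cells (4.55 and 7.73 to 82.8 and 75.9 TPM) and by 5.74 in transformed cells (0.231 and 0.487 to 44.0 and 45.5 TPM). In primary cells its values were 0.990 and 0.344 against 3.40 and 1.29 TPM (adjusted p = 0.0797).

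Transformed cells, in which EGLN1 rose most, also had the largest oxygen differences of NDRG1, VEGFA and ANKRD37 among the stages. NDRG1 went from 14.4 and 15.3 to 344 and 384 TPM (log2 fold change 4.57, adjusted p = 8.29e-06), the vascular growth factor VEGFA from 27.0 and 33.5 to 161 and 138 TPM (2.29, adjusted p = 6.86e-05), ANKRD37 by 1.38 (adjusted p = 0.000714) and the collagen prolyl hydroxylase P4HA1 by 1.29 (adjusted p = 0.000155). The glycolytic genes PGK1 and LDHA were called in immortalized cells (1.08 and 1.19) and PGK1 also in primary cells (1.58). CA9, BNIP3 and P4HA1 too differed most in transformed cells. By contrast, PDK1, PGK1 and PFKFB4 differed most in primary cells and LDHA in immortalized cells. In transformed cells PGK1 gave 0.65 (adjusted p = 0.0230), PFKFB4 0.57 (adjusted p = 0.112) and LDHA 0.80 (adjusted p = 0.00209). In the comparison that called EGLN1, in which the oxygen effect of cells labelled metastasizing is set against that of transformed cells, 8 of the 12 targets were called as lower, beside 8.47% of all genes in either direction (median difference -1.67, beside -0.15 for all genes tested). From transformed cells to those labelled metastasizing, 5 of the 12 targets were called higher at atmospheric oxygen and none lower, beside 4.12% of genes. The median log2 fold change of that step was 1.03, beside 0.06 for all genes tested. At 3% oxygen no target was called at this step, beside 5.92% of genes, and the median was -0.30, beside -0.07. PFKFB4, a regulator of glycolysis, rose in primary cells by 1.48 (adjusted p = 0.00220) and fell by 1.11 in cells labelled metastasizing (adjusted p = 0.00889). In the latter PFKFB4 went from 31.0 and 29.1 to 9.17 and 20.1 TPM and NDRG1 from 84.3 and 62.9 to 232 and 490 TPM. Both pairs are far apart at 3% oxygen. The members and these targets share the same libraries, so their values stand side by side and are not independent.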

How the data were processed

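The authors quantified stranded, poly-A selected libraries with kallisto 0.42.1 at default settings against GRCh37 and deposited TPM for each transcript, as the labels and the study's methods state. Each library sums to 1000000 TPM, reads are not given, and the authors' count-based edgeR test was not repeated. Of 180253 transcripts, 151453 matched GENCODE 44 lifted to GRCh37 and were summed by gene (88.2% to 90.1% of the TPM), while 1 stray header line was skipped.

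In limma 3.58.1 (R 4.3.3), 1 model with a coefficient for each of 8 groups was fitted to log2(TPM + 0.5) of all 16 libraries, with moderated tests and an intensity trend. The procedure was tested on simulated data, in which 181 of 200 changed genes were found with 3 false calls for the oxygen comparison in primary cells (12106 genes). All planted changes lay beyond a log2 fold change of 1, so the simulation does not show how often smaller ones are found. Many of the member passes are smaller. Exact permutation of 2 against 2 libraries cannot give a p under 0.333 and was not used. Python 3.11.15, pandas 2.3.3, numpy 2.4.6 and matplotlib 3.10.9 were used for tables and plots. Replicate letters did not pair libraries (correlations of deviations from the group means -0.15 to -0.0773 between oxygen levels and -0.155 to 0.226 between neighbouring stages).

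Members and lists were chosen with earlier results of these data known. Genes named beside the members are the list genes called in an oxygen comparison (otherwise the 2 most abundant), the 3 most correlated genes of each member, transcripts of at least 10% of a gene, and TERT and HRAS. Alternatives were pseudocounts of 1 and 0.1, no filter or one of 5 TPM, median-ratio and quantile scaling, only the groups compared, a replicate block, no trend, array weights, coding transcripts, all genes, an adjusted p under 0.05, any fold, and each library left out. SV40 Large-T was not analysed here.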

Additional observations from a re-analysis of the deposited data

Results flagged for a closer look

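The oxygen effect of 3 members differed between neighbouring stages by a test of the difference itself (limma, adjusted p under 0.01 and a log2 difference beyond 1). That of ARNT2 was higher by 2.03 in immortalized than in primary cells (SE 0.24, adjusted p = 0.000955). That of EPAS1 was higher by 1.46 in transformed than in immortalized cells (SE 0.18, adjusted p = 0.000217), with a fall in one stage and a rise in the other. That of EGLN1 differed by -1.36 between cells labelled metastasizing and transformed cells (SE 0.20, adjusted p = 0.00106). Groups of 2 libraries are too small for a check of single outlying libraries.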

How the results depend on the processing

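The count of members called was 2 over the 4 oxygen comparisons, 1 over the atmospheric steps, 1 over the steps at 3% oxygen, 0 in the averaged oxygen effect and 3 over the differences of the oxygen effect. At any fold change these were 6, 7, 11, 2 and 3. With protein-coding transcripts only, the atmospheric steps gave 3 calls (EPAS1, ARNT2 and HIF1AN). Leaving out single libraries gave 2 to 3, 1 to 3, 1 to 2, 0 to 0 and 3 to 3 calls. The added calls were EPAS1 for oxygen in immortalized cells (without immortalized replicate b), EGLN2 at the first and second steps (without immortalized replicate a) and at the second step (without transformed replicate a), all of these libraries at atmospheric oxygen, and EGLN1 at the second step (without transformed replicate a at 3% oxygen). With the replicate block the counts were 2, 1, 1, 0 and 3, and a crossed block, added after the data were seen because the correlation between oxygen levels was -0.15 in primary cells, pairs letter a at atmospheric with b at 3% oxygen and gave the same counts. The block changed the test result of no member fold change other than ARNT2 from transformed cells to those labelled metastasizing at atmospheric oxygen (adjusted p = 0.0113), and the crossed block also lost EPAS1 in transformed cells (0.0104) and VHL at the first atmospheric step (0.0130).

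Of 839 refits of the 29 member fold changes that passed, 748 still passed, 91 kept their direction but not the threshold, and none reversed. The cause was not tested. Array weights, which give the libraries labelled metastasizing at 3% oxygen little weight, left HIF1A (adjusted p = 0.0485), EGLN1 (0.0793) and ARNT2 (0.0539) without a pass in comparisons that use those libraries. EPAS1 in primary cells over all transcripts (-0.173 to 0.01015) and averaged over the stages (-0.0857 to 0.00497) changed sign on leaving out 1 library. Rescaling moved the median of all genes by -0.23 to 0.12 (median-ratio) and -0.10 to 0.12 (quantile). The averaged effect uses all libraries, so a fit of the groups compared alone is the same fit. TPM keep no depth, so counting error is unknown.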
